A study of Mus musculus with 88 samples.

Results

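The medial prefrontal cortex (mPFC) of stress-susceptible and control B6 mice is represented by 12 of the 88 libraries of the series, 6 libraries per group, each made from 1 mouse. They were chosen by brain region, strain and stress phenotype as the labels give them, and all 18946 genes of the mPFC table were compared between the groups. All mice were males of the inbred strain C57BL/6Crl as the labels spell it (B6), aged 8 weeks at dissection. Susceptible mice had gone through 10 d of chronic social defeat stress (CSDS), in which a larger aggressor mouse attacks the test mouse daily, and had then avoided an unfamiliar mouse: their social interaction ratio was more than 1 SD below the mean of controls of the same strain. Controls were never defeated. The 6 resilient B6 mice were defeated in the same way but interacted like controls, and the mPFC table also holds 14 susceptible and control mice of the strain DBA/2Crl (D2). Tissue was dissected by hand about a week after the last defeat, so each library is a mixture of all cell types in the piece removed, and fewer cells of a type cannot be told apart from less RNA per cell.

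The mPFC controls social and emotional behavior through layered glutamatergic neurons, GABAergic interneurons and the glia around them. Chronic social stress is studied there for effects on synapses, on glucocorticoid signaling, on microglia, the resident immune cells of the brain, and on oligodendrocytes (OLGs), which wrap axons in myelin. Inbred mouse colonies also carry a small number of genetic differences between substrains, and some of these change the RNA level of single genes in every tissue, whatever the treatment.

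The mouse ID numbers carry a prefix whose meaning the labels do not give, and the prefix was not balanced between groups. Of the 6 susceptible mice, 5 had the prefix C7 and 1 had C5. Of the 6 controls, 2 had C1, 3 had C2 and 1, control replicate 6, had C7. Among resilient mice 1 had C1, 3 had C2 and 2 had C5. Hence C5 or C7 mice made up 6 of 6 susceptible, 1 of 6 control and 2 of 6 resilient mice, 9 of the 18 B6 mice in all, and most genes described in detail below are given with the level of control replicate 6, the C7 control, and of the 2 resilient C5 mice, or with the difference that remained with the prefix in the model. The grouping of C5 with C7 against C1 with C2 was chosen after the values were seen.

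The clearest view of the prefix came from a pair of nearly identical sequences, printed here because 1 base separates them. mt-Nd3, on the mitochondrial genome (chrM:9459-9806, plus strand, GRCm38), encodes a subunit of respiratory complex I. Gm28438 is a nuclear copy of that sequence (chr1:24612775-24613119, minus strand). Over the 345 bases of the copy the transcripts differ at 1 base, T3C, counted from 1 at the 5′ end of mt-Nd3 and lying at position 9461 of the mitochondrial genome. The first 90 bases of the GENCODE M21 transcripts are shown with that base as the capital letter. A read that lies within the 345 bases and does not cover that base matches both genes. Sequence beyond the compared stretch was not examined.
mt-Nd3: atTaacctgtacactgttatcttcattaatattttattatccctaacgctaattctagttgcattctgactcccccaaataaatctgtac
Gm28438: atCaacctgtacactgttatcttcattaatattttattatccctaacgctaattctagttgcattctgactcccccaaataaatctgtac

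In the 9 C1 or C2 mice, mt-Nd3 lay between 2.34 and 11.5 CPM (reads of a gene scaled to a fixed library total) and Gm28438 between 0.259 and 1.54 CPM. In the 9 C5 or C7 mice, mt-Nd3 lay between 0.0320 and 0.680 CPM and Gm28438 between 21.6 and 82.0 CPM. The copy therefore took 2.56% to 23.7% of the summed signal in C1 or C2 mice and 97.8% to 99.9% in C5 or C7 mice, with no overlap. The C7 control had 97.8%, like the susceptible mice, and the D2 mice, which are of another strain, had 98.8% to 99.9%. The sum of both was not constant. It lay between 2.91 and 12.1 CPM in C1 or C2 mice and between 21.8 and 82.1 CPM in C5 or C7 mice. As log2 CPM, mt-Nd3 ran from -0.56 to 3.30 in controls (median 1.89) and from -4.97 to -2.94 in susceptible mice (median -3.37), a log2 fold change of -5.41 ± 0.74 (SE, adjusted p = 0.00101 by limma with Benjamini-Hochberg adjustment over all genes). For Gm28438 the ranges were -1.95 to 4.93 in controls (median -0.85) and 4.54 to 6.36 in susceptible mice (median 4.85), a log2 fold change of 5.23 ± 0.97 (adjusted p = 0.00882 by limma). Both differences were still called when any 1 of the 12 libraries was left out. The size for mt-Nd3 rests on susceptible values far under 1 CPM: with all values floored at log2 CPM 0 it was -1.75 (adjusted p = 0.0322, limma), and that of Gm28438 was 4.25.

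Of 18946 genes, 420 (2.22%) were called different between susceptible and control mice, that is at an adjusted p under 0.05, with 178 higher (0.94%) and 242 lower (1.28%). Most of these differences were small: the absolute log2 fold change had a median of 0.28, 316 of the 420 genes were under 0.5 and 10 were at 1 or more. In 405 of the 420 called genes every susceptible mouse was above, or every one below, the control mean, against 17.2% of all genes. All values of the groups were apart in 152 of the 420, or 36.2%, against 1.47% of all genes. Both shares were computed from the values that made the calls, so they describe the calls and are no further support for them. Protein-coding genes made up 84.5% of the calls and 74.8% of the genes tested. At an unadjusted p under 0.05 there were 3441 genes, or 18.2%, the share against which such counts for gene lists are to be read. The X chromosome held 5.95% of the calls and 3.57% of the genes tested.

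The calls depended on which mice entered the model. The count of 420 used the spread of all 32 mPFC libraries. With only the 18 B6 libraries 54 genes were called, with only the 12 compared libraries 4, and with the library preparation set as a covariate 39. When 1 of the 12 libraries was left out, all 420 genes kept their direction, but 390 lost the call in at least 1 of the 12 fits and 30 were called in every one. Without control replicate 3 the count fell to 33, and without control replicate 6 it rose to 802. Without susceptible replicate 4 it was 713, with 412 genes higher and 301 lower, so that higher genes then outnumbered lower ones. Of the 103 called genes from which the examples below are taken, 83 lost the call without control replicate 3, 77 without susceptible replicate 5, 71 without control replicate 4, 68 without susceptible replicate 2, 67 without control replicate 5, 64 without control replicate 1 and 61 without susceptible replicate 6. The number of these 12 fits that called a gene is therefore given with the main examples.

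Part of the called genes ordered all B6 mice by prefix, whatever their group. In 54 of the 420 (12.9%, against 0.496% of all genes) the 9 C5 or C7 mice of the 3 B6 groups all lay beyond the 9 C1 or C2 mice, 12 of them higher and 42 lower. In 36 of the 420 (8.57%, against 0.823%) the 6 C7 mice lay beyond the other 12. Both shares rest in part on the values that made the calls. The 2 resilient C5 mice share no animal with the susceptible and control groups. The difference between them and the 4 other resilient mice is a separate measurement of C5 against C1 or C2 under the same treatment. Of the resilient mice 0 had C7, so C7, the prefix of 5 susceptible mice, was not measured in this way. The resilient C5 difference had the direction of susceptible minus control in 339 of the 420 called genes, or 80.7%, and in 59.5% of all genes. By itself it called 11 genes (0.0581%), and 9 of the 11 were also among the 420.

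With the prefix (C5 or C7 against C1 or C2) as a term in the limma model, 0 genes were called at an adjusted p under 0.05, and 1247 (6.58%) had an unadjusted p under 0.05. The median SE of the difference rose from 0.086 to 0.120 on the log2 scale. Of the 420 called genes, 312 kept at least 50% of their difference in that model, 70 had one at least as large, 225 had an unadjusted p under 0.05, and the median fraction kept was 0.69. With 5 of 6 controls on one side of the prefix and all susceptible mice on the other, susceptibility and prefix are confounded, and for genes ordered by prefix they cannot be told apart. All 6 susceptible mice had C5 or C7, so the prefix term rested on 1 C7 control and 2 resilient C5 mice. It took C5 and C7 as equal, with the same effect in every group, and this was not tested. The difference that remained in this model cannot by itself separate susceptibility from prefix. With C7 alone as the term 2 genes were called (0.0106%), Gm5069 higher and Gm15361 lower. Within C7 mice, where the control side is control replicate 6 alone and its spread was assumed equal to that of the other groups, 9 were called (0.0475%). In direct comparison of susceptible mice with the 2 resilient C5 mice, 0 genes were called by limma, with 1337 at an unadjusted p under 0.05. Against all 6 resilient mice, without the prefix in the model, 383 genes were called, 160 higher and 223 lower in susceptible mice. Of these, 172 were among the 420. Prefix was unbalanced there too, with C1 or C2 in 4 of the 6 resilient mice and 0 of the 6 susceptible mice.

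**Figure D1:**
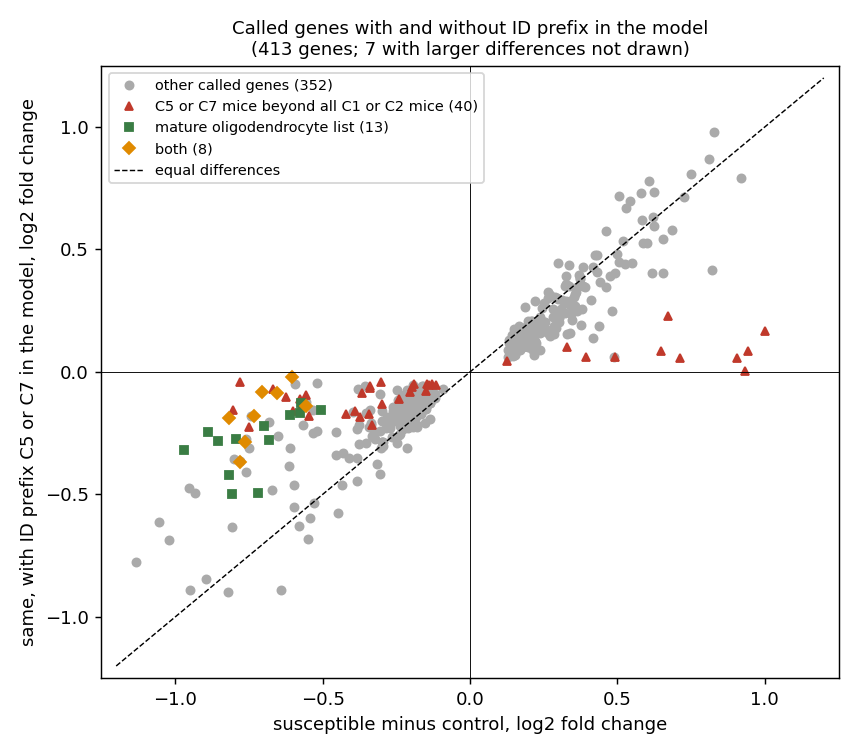
Log2 fold change of susceptible minus control B6 mice (horizontal) against the same difference with ID prefix C5 or C7 in the model (vertical) for 413 of the 420 called genes; 7 with differences past 1.2 are not drawn. Genes whose 9 C5 or C7 mice all lie beyond the 9 C1 or C2 mice (triangles, and diamonds for those of the mature OLG list) were marked from the same values that are plotted. The dashed line marks equal differences, and 312 of the 420 called genes kept at least 50% of theirs.

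Genes ordered by prefix included several that are known to differ between C57BL/6 substrains. Of 6 measured genes on a list of such genes, chosen with earlier results known, 3 were called higher and 1 lower, against 2.22% called over all genes. By prefix 3 of the 6 were ordered, against 0.496% of all genes. What the prefix stands for was not tested. Wdfy1, an endosomal adaptor protein of innate immune signaling, ran from 4.87 to 5.98 log2 CPM in controls (median 5.12) and from 6.02 to 6.48 in susceptible mice (median 6.17). The highest control, at 5.98, was the C7 mouse, the other 5 controls did not exceed 5.2, and the resilient C5 mice stood at 6.09 and 6.18. This difference of 1.0 ± 0.18 (adjusted p = 0.00705, limma) became 0.17 ± 0.12 with the prefix in the model, and D2 mice had 6.1 to 6.6.

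Gabra2 encodes the α2 subunit of the GABA-A receptor, the main inhibitory receptor of cortex. It ran from 6.28 to 7.12 log2 CPM in controls (median 6.42) and from 7.06 to 7.31 in susceptible mice (median 7.2), and the control at 7.12 was again the C7 mouse. It was the 1 called gene of 13 measured GABA-A receptor subunits, whose median was 0.01. Gabra2 had a log2 fold change of 0.65 ± 0.13 (adjusted p = 0.0142, limma) and 0.09 ± 0.11 with the prefix in the model. Nnt, the mitochondrial enzyme that couples the proton gradient to NADPH, lay between 5.06 and 5.63 in controls (median 5.14) and between 5.63 and 5.93 in susceptible mice (median 5.68). For Nnt the log2 fold change was 0.49 ± 0.10 (adjusted p = 0.0142, limma) and 0.06 ± 0.08 with the prefix. The resilient C5 mice were at 7.1 and 7.2 for Gabra2 and at 5.65 and 5.69 for Nnt, and the resilient C1 or C2 mice stayed at or below 6.64 and 5.18. Without control replicate 3 the adjusted p of both genes was 0.0562, Gabra2 was called in 11 and Nnt in 10 of the 12 fits without 1 library, and neither was called with the library preparation set as a covariate.

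Cd59a, which protects cells from the complement membrane attack complex, lay between 2.55 and 3.81 log2 CPM in controls (median 2.85) and between 3.71 and 4.20 in susceptible mice (median 3.89). The C7 control was at 3.81 and the resilient C5 mice at 3.83 and 4.02, above the highest C1 or C2 mouse at 3.20. Gm15446, a predicted gene, ran the other way, from 2.58 in the C7 control to 5.88 in controls (median 5.16) and from 1.32 to 2.81 in susceptible mice (median 2.43), with the resilient C5 mice at 2.55 and 2.76. The log2 fold changes of Cd59a and Gm15446 were 0.94 ± 0.19 (adjusted p = 0.0142, limma) and -2.65 ± 0.47 (adjusted p = 0.00705, limma), and 0.08 and -0.42 with the prefix in the model. All 12 fits without 1 library called Gm15446 and 11 called Cd59a, which had an adjusted p of 0.0562 in limma without control replicate 3. Ccl28, a chemokine, ran from 1.65 to 2.91 in controls (median 2.76) and up to 1.83 in susceptible mice (median 0.86), so that the log2 fold change was -1.65 ± 0.32 (adjusted p = 0.0110, limma) and -0.64 with the prefix. The lowest control, at 1.65, was the C7 mouse, and the resilient C5 mice were at 0.55 and 1.12.

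Some further genes of this kind have near-identical copies, and how reads were assigned between the copies was not tested. Hist1h4m, a member of the replication-dependent histone H4 family whose members have nearly the same coding sequence, lay between -2.66 and 1.56 log2 CPM in controls (median -0.32) and between -5.28 and -4.42 in susceptible mice (median -4.80). The resilient C5 mice were at -4.86 and -4.77 and the C7 control, at -2.66, was the lowest control. These levels are far under 1 CPM in susceptible mice, and the log2 fold change of -4.56 (adjusted p = 0.00556, limma) became -0.38 and was not called (adjusted p = 0.214) with values floored at log2 CPM 0. Tmem181b-ps, a pseudogene copy of the membrane protein gene Tmem181a on chromosome 17, ran from 4.61 to 6.11 in controls (median 4.92) and from 5.83 to 6.38 in susceptible mice (median 5.96). Its neighbour Dynlt1b, a light chain gene of the dynein motor, ran from -0.11 to 0.85 in controls (median 0.36) and from 1.0 to 1.8 in susceptible mice (median 1.09). Of 7 measured Dynlt1 and Tmem181 copies 3 were called, all higher, with log2 fold changes of 0.93 for Tmem181b-ps, 0.91 for Dynlt1b and 0.49 for Dynlt1-ps1, and the prefix model gave 0.00, 0.06 and 0.06. Tmem181a itself, with 5.38 to 5.61 in controls and 5.16 to 5.50 in susceptible mice, was not called (log2 fold change -0.08 ± 0.06).

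**Figure D2:**
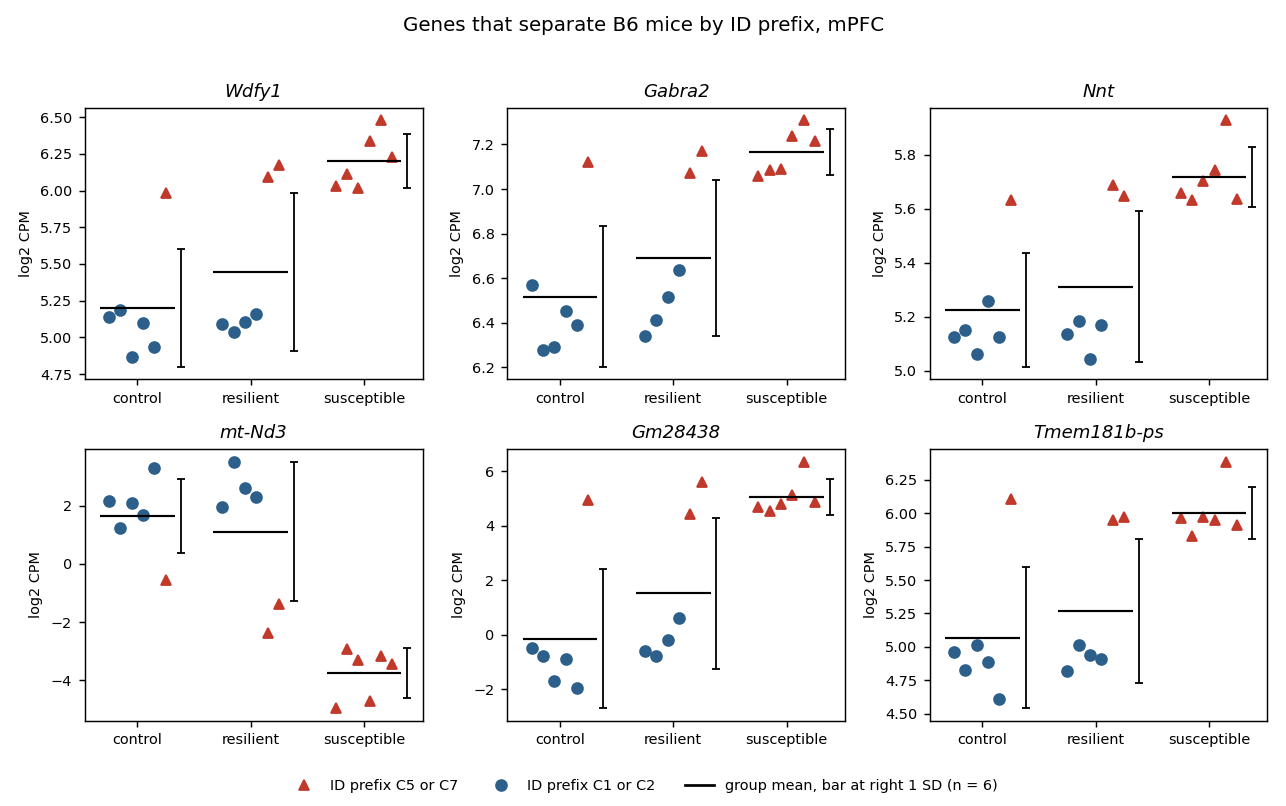
Level (log2 CPM, vertical) of 6 genes in each of the 6 control, 6 resilient and 6 susceptible B6 mice; triangles mark ID prefix C5 or C7 and circles C1 or C2, the line is the group mean and the bar at its right 1 SD. Except for mt-Nd3, the single C7 control and the 2 resilient C5 mice lie with or next to the susceptible mice, and Tmem181b-ps reaches 6.11 in that control. For mt-Nd3 these mice, at 0.194 to 0.680 CPM, lie between the susceptible mice (up to 0.131 CPM) and the C1 or C2 mice (from 2.34 CPM).

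A stretch of chromosome 19 around Ide also held called neighbours. Fgfbp3, Btaf1 and Ide, within chr19:36917550-37337852, were called lower in susceptible mice. Ide, the insulin-degrading enzyme, ran from 6.40 to 7.31 log2 CPM in controls (median 6.90) and from 6.20 to 6.51 in susceptible mice (median 6.31), with the C7 control at 6.46 and the resilient C5 mice at 6.28 and 6.29. Btaf1, a regulator of TATA-binding protein, ran from 7.61 to 8.18 in controls (median 7.91) and from 7.46 to 7.60 in susceptible mice (median 7.56), with the C7 control lowest and the resilient C5 mice at 7.60 and 7.64. The log2 fold changes were -0.52 ± 0.14 for Ide (adjusted p = 0.0427, limma) and -0.36 ± 0.09 for Btaf1 (adjusted p = 0.0375, limma), and -0.04 and -0.06 with the prefix in the model. Of the 7 measured genes listed for the stretch, 3 were called lower and 0 higher, and they were called in 3 (Ide), 5 (Btaf1) and 4 (Fgfbp3) of the 12 fits without 1 library.

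Part of the mature OLG markers were ordered by prefix. Of 29 genes of the list, all measured, 21 were called lower and 0 higher, against 2.22% called over all genes. By prefix 10 of the 29 were ordered, against 0.496% of all genes. Of the 21 called, 8 were among the 54 ordered by prefix, against 12.9% of all called genes. The median log2 fold change of the list was -0.70, against 0.00 over all genes. In resilient mice C5 minus C1 or C2 gave a median of -0.56 with all 29 genes lower, and the prefix model for susceptible minus control left a median of -0.17. Adamts4, a protease of OLG-lineage cells, had the largest remaining value of the examples here, with 4.13 to 4.84 log2 CPM in controls (median 4.68) and 3.44 to 4.16 in susceptible mice (median 3.73), a log2 fold change of -0.78 ± 0.16 (adjusted p = 0.0142, limma) and -0.37 ± 0.19 with the prefix. The C7 control was at 4.13 and the resilient C5 mice at 4.08 and 4.19, and without control replicate 3 the adjusted p was 0.0518. Mag, the myelin protein that faces the axon, was 5.26 in the C7 control and 5.63 to 6.32 in the other controls, 5.29 and 5.44 in the resilient C5 mice and 4.78 to 5.49 in susceptible mice. For Mag the log2 fold change of -0.82 ± 0.19 (adjusted p = 0.0266, limma) became -0.19 ± 0.21. S1pr5, a sphingosine 1-phosphate receptor of OLGs, was 3.28 in the C7 control, 3.87 to 4.39 in the other controls, 3.53 and 3.54 in the resilient C5 mice and 2.82 to 3.66 in susceptible mice. Of 14 OLG precursor genes 2 were called lower, Bcas1 (-0.75) and Enpp6 (-0.65), both of which mark newly forming OLGs, and the list median was -0.06. Of 8 OLG transcription factors 0 were called by limma and 3 had an unadjusted p under 0.05, with a median of -0.25.

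Markers of tissue next to the mPFC had a negative sign without a call. The mPFC lies close to the striatum, and 18 of 18 genes on a list of striatal projection neuron markers, such as Drd2, had a negative log2 fold change with a median of -0.67, although 0 were called by limma and 14 had an unadjusted p under 0.05 (18.2% over all genes). The mean of the list ran from 3.71 to 5.21 log2 CPM in controls (median 4.66), from 3.80 to 5.28 in resilient mice (median 4.31) and from 3.6 to 4.0 in susceptible mice (median 3.8). The low mice outside the susceptible group had both kinds of prefix: a C1 control at 3.71, the C7 control at 3.84, the C5 resilient mice at 3.80 and 3.99 and the C1 resilient mouse at 3.86, while the other controls and resilient mice were at 4.46 or higher. No gene of the list was ordered by prefix. In resilient mice C5 minus C1 or C2 was negative for all 18 genes (median -0.64), and with the prefix in the model the susceptible minus control median was -0.10. Drd2, the D2-type dopamine receptor of striatopallidal neurons, ran from -0.95 to 2.47 in controls, with the C7 control at -0.69, and from -1.46 to 0.20 in susceptible mice, with the resilient C5 mice at -1.01 and -0.07 (log2 fold change -1.73 ± 0.62, adjusted p = 0.125, limma). For the mature OLG list the mean per mouse was 4.56 in the C7 control and 4.75 to 5.47 in the other controls, 4.7 in both resilient C5 mice and 5.1 to 5.4 in the other resilient mice, and 4.14 to 4.69 in susceptible mice. Whether the extent of the dissected piece had a part in the OLG difference was not tested.

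**Figure D3:**
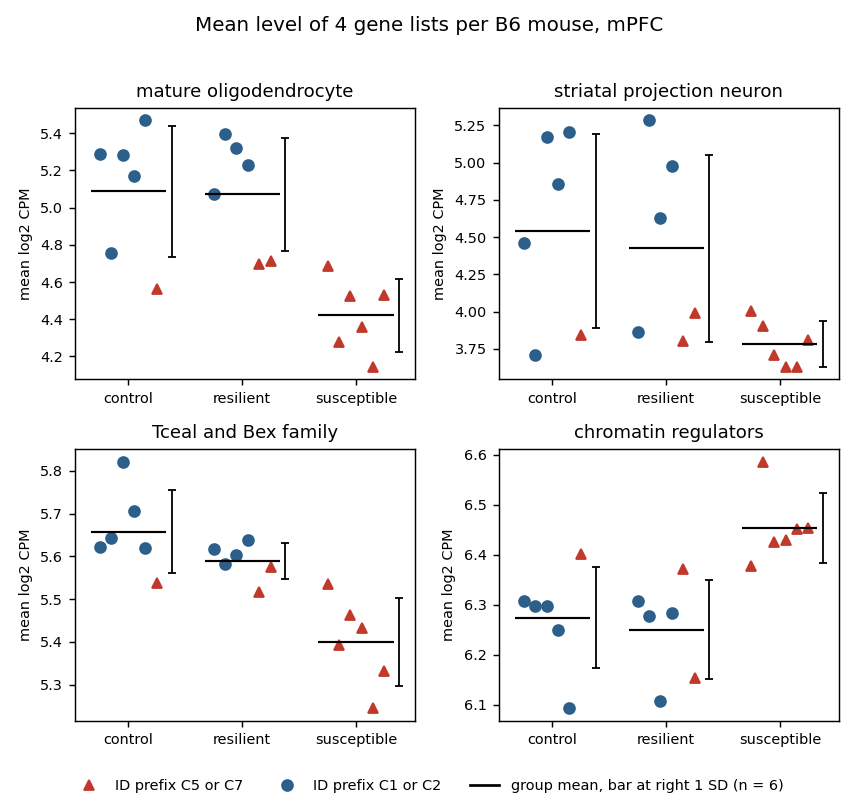
Mean log2 CPM (vertical) of the members of 4 gene lists in each control, resilient and susceptible B6 mouse, with ID prefix C5 or C7 as triangles and C1 or C2 as circles, the group mean as a line and 1 SD as a bar. For mature OLG genes the C7 control and the resilient C5 mice are lower than the C1 or C2 mice, for striatal genes a C1 control and the C1 resilient mouse are as low as they are, and for chromatin regulators the susceptible mice lie between 6.38 and 6.59, with the C7 control at 6.40 and the resilient C5 mice at 6.15 and 6.37.

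Cholinergic, ependymal and cell division genes also had a negative median with few calls. Of the cholinergic neuron list 3 of 7 genes were measured and 0 were called by limma, with all 3 at an unadjusted p under 0.05; Chat, the acetylcholine-synthesizing enzyme, ran from -0.91 to 1.35 log2 CPM in controls and from -1.87 to -0.71 in susceptible mice, with the C7 control at -0.45 and the resilient C5 mice at -1.2 and -0.58 (log2 fold change -1.43 ± 0.46, adjusted p = 0.0854, limma). Of 10 measured ependymal genes 1 was called, Spag16, a component of the ciliary axoneme, with 0.02 in the C7 control, 1.04 to 1.96 in the other controls, 1.18 and 1.19 in the resilient C5 mice and -0.76 to 0.70 in susceptible mice. Of 28 measured cell division genes 2 were called lower, Cdca3 and Ncaph, the median was -0.37, 16 had an unadjusted p under 0.05, and the prefix model left a median of -0.14. Cdca3, which acts in entry into mitosis, ran from 0.10 to 1.31 in controls (median 0.52) and from -0.89 to 0.09 in susceptible mice (median -0.38). Unlike most of its list it kept its difference, -0.95 ± 0.22 (adjusted p = 0.0266, limma) and -0.89 ± 0.32 with the prefix, and the C7 control had 0.20 and the resilient C5 mice 0.49 and 0.55. It was called in 5 of the 12 fits that left out 1 library, and its difference was -0.56 with values floored at log2 CPM 0 (adjusted p = 0.0292, limma).

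Markers of cortex proper were present and differed little. Of 9 upper-layer and 13 measured deep-layer genes 0 were called by limma, with 2 and 3 at an unadjusted p under 0.05, and the list medians were 0.16 and -0.02. For 18 interneuron genes 0 were called, 1 had an unadjusted p under 0.05 and the median was 0.06. The 14 astrocyte genes (median -0.05) and 15 endothelial genes (median -0.06) also had 0 calls, with 2 each at an unadjusted p under 0.05. The mean of the upper-layer list was 6.20 to 6.55 log2 CPM in controls and 6.04 to 6.67 in susceptible mice, where the lowest value belonged to susceptible replicate 4.

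**Figure D4:**
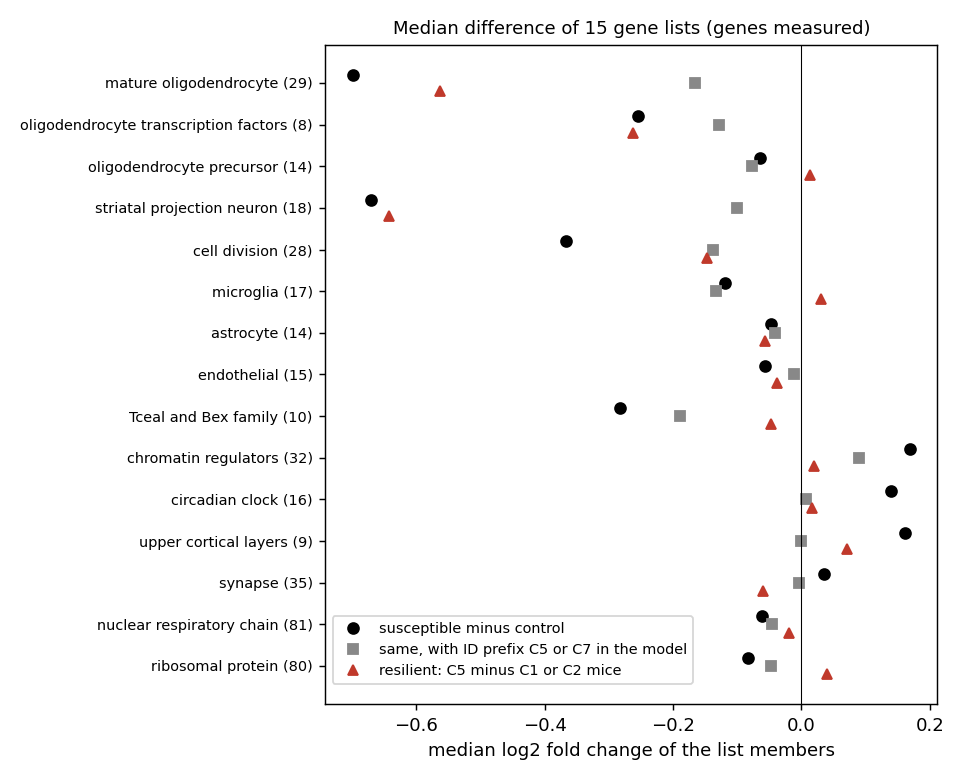
Median log2 fold change (horizontal) of the measured members of 15 gene lists for susceptible minus control mice (circles), for the same difference with ID prefix C5 or C7 in the model (squares) and for resilient C5 minus resilient C1 or C2 mice (triangles). The mature OLG and striatal lists lie at -0.70 and -0.67 for susceptible minus control, at -0.56 and -0.64 within resilient mice, and at -0.17 and -0.10 with the prefix in the model.

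Other called genes kept most of their difference with the prefix in the model, and in several of them the C7 control and the resilient C5 mice lay outside the range of the susceptible mice. Mpeg1, which encodes perforin-2, a pore-forming protein of microglia and macrophages, had the smallest adjusted p of these. It ran from 3.96 to 4.22 log2 CPM in controls (median 4.11) and from 3.51 to 3.89 in susceptible mice (median 3.60). The groups did not overlap, the C7 control was the lowest control at 3.96, and the resilient C5 mice, at 3.91 and 3.94, were also above every susceptible mouse. The log2 fold change was -0.46 ± 0.07 (adjusted p = 0.00132, limma, 1.37-fold lower) and -0.34 ± 0.09 with the prefix in the model (unadjusted p = 0.000694), and it was called in all 12 fits that left out 1 library.

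The other microglial genes moved less. Of 17 on the list 2 were called, both lower, and 15 had a negative sign, with a median of -0.12 and of -0.13 with the prefix. The second was Ctss, the lysosomal protease cathepsin S, with 5.98 to 6.30 log2 CPM in controls (median 6.15) and 5.85 to 6.09 in susceptible mice (median 5.87). The C7 control was at 5.98 and both resilient C5 mice at 6.01. Its difference of -0.25 ± 0.07 (adjusted p = 0.0463, limma) was called in 3 of the 12 fits without 1 library. Cx3cr1, the microglial fractalkine receptor, had -0.14 ± 0.06 (adjusted p = 0.159, limma), and -0.17 with the prefix. Among vessel-associated genes Rgs5, a pericyte marker, ran from 7.25, in the C7 control, to 7.34 in controls and from 7.03 to 7.18 in susceptible mice. The resilient C5 mice were at 7.2 and 7.33, and the prefix model gave -0.11. The difference of -0.19 ± 0.04 for Rgs5 (adjusted p = 0.0110, limma) was called in all 12 fits. Mgp, matrix Gla protein of vessel walls and meninges, was higher, with 2.39 to 2.93 in controls (median 2.58, C7 control 2.59), 2.41 and 2.75 in the resilient C5 mice and 2.48 to 3.44 in susceptible mice (median 3.28). Its difference was 0.52 ± 0.12 (adjusted p = 0.0278, limma) and 0.53 with the prefix, and 7 of the 12 fits called it.

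Chromatin and transcription regulators had a positive median with few calls. Of 32 genes, all measured, 4 were called higher and 0 lower, 28 had a positive sign, 21 had an unadjusted p under 0.05 (18.2% over all genes) and the median log2 fold change was 0.17. The median fell to 0.09 with the prefix in the model, with 26 of 32 positive, 4 at an unadjusted p under 0.05 (6.58% over all genes) and 0 called, and resilient C5 minus C1 or C2 gave 0.02. Prmt1, the main arginine methyltransferase of histones and RNA-binding proteins, carried the clearest difference. It ran from 3.32 to 3.74 log2 CPM in controls (median 3.56) and from 3.81 to 4.03 in susceptible mice (median 3.87), and the C7 control had the lowest value of all. The resilient C5 mice, at 3.48 and 3.78, lay below every susceptible mouse. The log2 fold change was 0.33 ± 0.06 (adjusted p = 0.0106, limma) and rose to 0.43 ± 0.09 with the prefix (unadjusted p = 2.50e-05, adjusted p = 0.237), and all 12 fits without 1 library called it.

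The 3 other called regulators behaved differently toward the prefix. Kmt2a, a histone H3 lysine methyltransferase, ran from 7.84 to 8.18 in controls and from 8.08 to 8.29 in susceptible mice, and the control at 8.18 was the C7 mouse, with the resilient C5 mice at 8.03 and 8.19. Ep300, a histone acetyltransferase and co-activator, ran from 6.55 to 6.91 in controls and from 6.82 to 7.06 in susceptible mice, again with the C7 control highest and the resilient C5 mice at 6.69 and 6.80. Ep400, an ATPase that exchanges histones, ran from 7.28 to 7.53, in the C7 control, and from 7.49 to 7.62, with the resilient C5 mice at 7.43 and 7.53. Their log2 fold changes were 0.24, 0.21 and 0.17, each became 0.09 with the prefix in the model, and they were called in 5, 4 and 5 of the 12 fits without 1 library.

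Genes of neuronal excitability and of the synapse were few among the calls. Cacna1g and Cacna1i encode low-threshold T-type calcium channels and were the only 2 of 25 measured calcium and sodium channel genes called, both higher. Cacna1g ran from 5.84 to 6.20 log2 CPM in controls (median 6.04) and from 6.20 to 6.51 in susceptible mice (median 6.40), with the C7 control highest in its group at 6.20 and resilient C5 mice at 5.89 and 6.06. The log2 fold change of Cacna1g was 0.36 ± 0.07 (adjusted p = 0.0148, limma), 0.32 ± 0.10 with the prefix, and 10 of the 12 fits called it. Cacna1i ran from 5.27 to 5.75 in controls (median 5.72) and from 5.96 to 6.27 in susceptible mice (median 6.02), with no overlap, with the C7 control at 5.75 and with the resilient C5 mice at 5.35 and 5.62. Its log2 fold change was 0.43 ± 0.11 (adjusted p = 0.0381, limma) and 0.48 ± 0.16 with the prefix, but 5 of the 12 fits called it.

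Nrxn2, a presynaptic adhesion protein, ran from 6.64 to 7.01 log2 CPM in controls (median 6.85) and from 7.09 to 7.50 in susceptible mice (median 7.27), and the groups did not overlap. The C7 control was at 7.00 and the resilient C5 mice at 6.54 and 6.96. Nrxn2 had a log2 fold change of 0.42 ± 0.10 (adjusted p = 0.0266, limma) and 0.43 ± 0.14 with the prefix, and 6 of the 12 fits called it. Syp, synaptophysin of synaptic vesicles, was lower, with 9.71 to 9.98 in controls and 9.48 to 9.89 in susceptible mice, with the C7 control at 9.93 and the resilient C5 mice at 9.67 and 9.82 (log2 fold change -0.23 ± 0.06, adjusted p = 0.0406, limma). These were the 2 called among 35 synapse genes, whose median was 0.04. Of 24 measured glutamate receptor genes only Grin2d was called, a subunit of NMDA receptors, with 1.49 to 1.99 in controls, 1.98 in the C7 control, 1.68 and 2.15 in the resilient C5 mice and 1.9 to 2.6 in susceptible mice (log2 fold change 0.48 ± 0.13, adjusted p = 0.0406, limma, and 0.25 with the prefix). Of 39 potassium channels 1 was called, Kcnk1, a background leak channel, at -0.24 ± 0.06 (adjusted p = 0.0266, limma), and it was among the genes ordered by prefix. Kif5a and Kif5b, motor proteins of axonal transport, were the 2 called of 17 axon and node genes, at -0.34 and -0.23, and -0.17 and -0.12 with the prefix. Susceptible replicate 4 was the lowest B6 mouse for the mean of the synapse, the calcium and sodium channel and the axon lists.

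**Figure D5:**
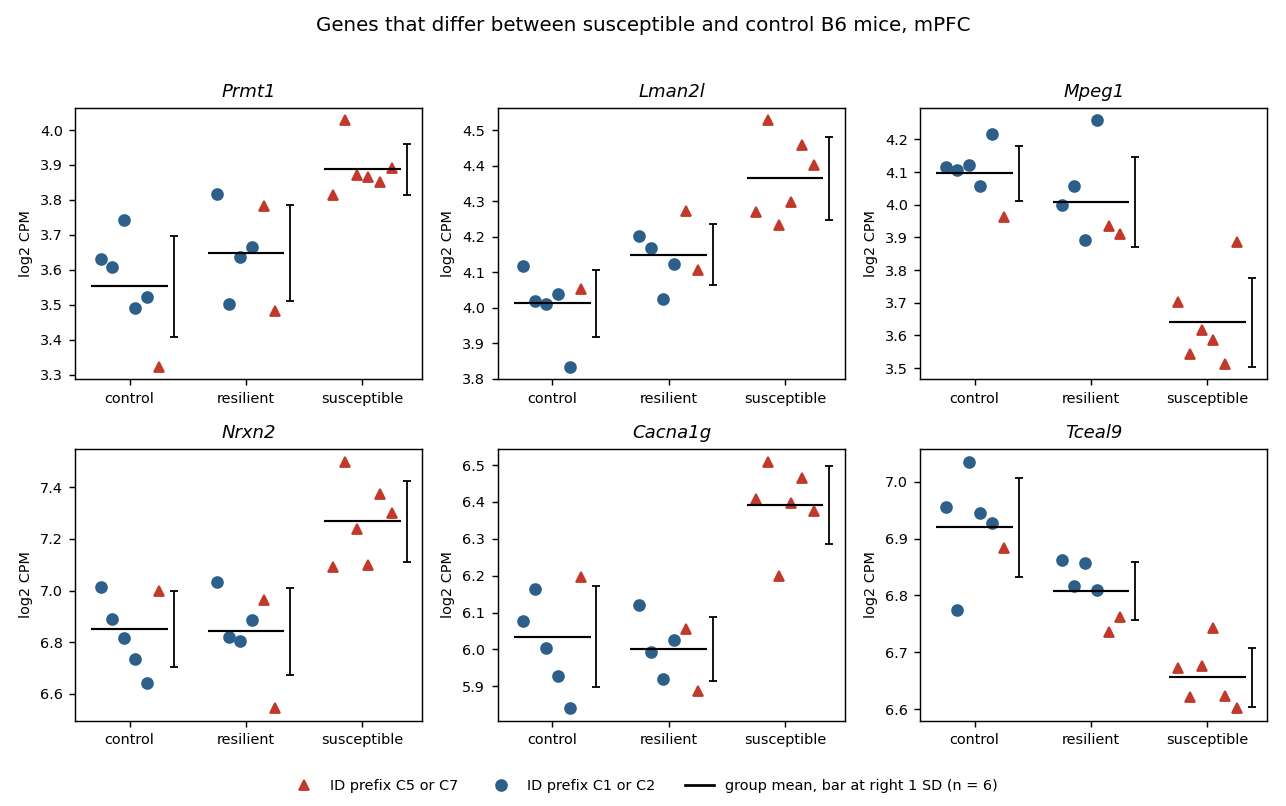
Level (log2 CPM, vertical) of 6 called genes in each of the 6 control, 6 resilient and 6 susceptible B6 mice, with ID prefix C5 or C7 as triangles, C1 or C2 as circles, the group mean as a line and 1 SD as a bar. The control triangle lies within or below the other controls for Prmt1, Mpeg1 and Lman2l, and the resilient triangles lie below all susceptible mice for Prmt1 and above them for Mpeg1.

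Stress hormone and protein-folding genes gave isolated calls. Fkbp5, a co-chaperone of the glucocorticoid receptor and one of its best known targets, ran from 2.78 to 3.19 log2 CPM in controls (median 3.17) and from 3.23 to 3.70 in susceptible mice (median 3.48). The groups did not overlap, the C7 control was at 3.19, the resilient C5 mice were at 2.93 and 3.12, and all resilient mice spread from 2.93 to 3.49. Fkbp5 had a log2 fold change of 0.38 ± 0.11 (adjusted p = 0.0490, limma) and 0.43 ± 0.15 with the prefix, and 3 of the 12 fits without 1 library called it. It was the only call among 22 measured glucocorticoid receptors and targets, whose median was -0.09. Ern1, which encodes the endoplasmic reticulum stress sensor IRE1α, ran from 4.45 to 4.56 in controls (median 4.50) and from 4.63 to 4.91 in susceptible mice (median 4.79). This was a difference of 0.28 ± 0.05 (adjusted p = 0.00882, limma) and 0.23 ± 0.07 with the prefix, all 12 fits called it, and the resilient C5 mice, at 4.59 and 4.80, reached into the susceptible range. Syvn1, a ubiquitin ligase that removes misfolded proteins from the endoplasmic reticulum, ran from 3.68 to 4.02 in controls (median 3.77) and from 3.89 to 4.28 in susceptible mice (median 4.10), which gave 0.29 ± 0.07 (adjusted p = 0.0313, limma) and 0.30 with the prefix, with the C7 control at 3.83 and the resilient C5 mice at 3.74 and 3.93. These 2 were the calls among 24 heat shock and unfolded protein genes, whose median was -0.07.

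Lman2l, a lectin-like cargo receptor of the early secretory pathway, ran from 3.83 to 4.12 log2 CPM in controls (median 4.03) and from 4.23 to 4.53 in susceptible mice (median 4.35). The C7 control, at 4.05, lay within the other controls, and the resilient C5 mice were at 4.11 and 4.27. Lman2l had a log2 fold change of 0.35 ± 0.06 (adjusted p = 0.00556, limma) and 0.31 ± 0.08 with the prefix, and all 12 fits called it. Among genes with little known function Gm15361, on the X chromosome, ran from 2.77 to 3.44 in controls (median 3.18), with the C7 control highest, and from 2.4 to 2.8 in susceptible mice (median 2.6). It had -0.54 ± 0.08 (adjusted p = 0.00176, limma) and -0.59 ± 0.12 with the prefix (unadjusted p = 1.91e-05), and all 12 fits called it. The neighbours of Lman2l on chromosome 1, Gm37909 and Cnnm3, a member of the cyclin M family of magnesium transport proteins, were also called higher, at 0.92 and 0.24, but Gm37909, under 1 CPM in most mice, had 0.06 and was not called with values floored at log2 CPM 0 (adjusted p = 0.276, limma).

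The Tceal and Bex genes, small acidic proteins encoded in a cluster on the X chromosome and abundant in neurons, had several members called lower. Of 10 measured, 5 were called lower and 0 higher, and all 10 had a negative sign, with a median of -0.28 and of -0.19 with the prefix in the model. Tceal9 ran from 6.77 to 7.04 log2 CPM in controls (median 6.94) and from 6.60 to 6.74 in susceptible mice (median 6.65), with the C7 control at 6.88 and the resilient C5 mice at 6.74 and 6.76. Its log2 fold change was -0.26 ± 0.04 (adjusted p = 0.00556, limma), -0.20 ± 0.06 with the prefix. Tceal8 ran from 5.95 to 6.29 in controls (median 6.05) and from 5.64 to 5.81 in susceptible mice (median 5.74), which gave -0.33 ± 0.06 (adjusted p = 0.00705, limma) and -0.22 ± 0.08 with the prefix, the C7 control being lowest in its group at 5.95 and the resilient C5 mice at 5.87 and 5.98. Both were called in all 12 fits without 1 library. Bex2, by contrast, was ordered by prefix, with 6.72 in the C7 control, 7.05 to 7.18 in the other controls, 6.80 and 6.84 in the resilient C5 mice and 6.67 to 6.87 in susceptible mice, and its log2 fold change went from -0.30 to -0.04 with the prefix.

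Some called genes lay close together on a chromosome. Bex2, Tceal8, Tceal9, Tceal3 and Morf4l2, which acts in chromatin and DNA repair complexes, are near neighbours on the X chromosome and were all called lower, Morf4l2 at -0.20 ± 0.05 (adjusted p = 0.0428, limma). Elsewhere on the X chromosome a run held Syp with Pqbp1 and Timm17b, of which Pqbp1 and Timm17b lie side by side. On chromosome 17 Rab40c, Capn15 and Rab11fip3 (chr17:25882114-26069555) were called higher at 0.29, 0.32 and 0.19, and all 5 measured genes of the span were positive. With the prefix in the model Rab40c had 0.31, Capn15 0.35 and Rab11fip3 0.11, and 6, 4 and 3 of the 12 fits without 1 library called them. On chromosome 19 Pcnx3, Syvn1 and Nrxn2 formed a run spread over 41 measured genes, of which 23 were positive.

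Mitochondrial and ribosomal genes gave few calls. All 8 measured genes of the mitochondrial genome had a negative sign, although only mt-Nd3 was called, and the other 7 had a median of -0.24 and of -0.38 with the prefix, where 5 of them had an unadjusted p under 0.05. mt-Nd5, a subunit of complex I, ran from 9.45 log2 CPM upward in controls (median 9.72), where the C7 mouse was highest, and from 9.08 to 9.72 in susceptible mice (median 9.52), a log2 fold change of -0.38 ± 0.14 (adjusted p = 0.140, limma). Of 81 measured nuclear genes of the respiratory chain 1 was called higher and 4 lower, with a median of -0.06. Cyc1, cytochrome c1 of complex III, was the higher one, with 4.68 to 4.98 in controls (median 4.86) and 5.06 to 5.21 in susceptible mice (median 5.11), a log2 fold change of 0.26 ± 0.07 (adjusted p = 0.0375, limma) and 0.33 ± 0.09 with the prefix, with the C7 control at 4.82 and the resilient C5 mice at 4.66 and 4.98. Ndufc2, Ndufv2 and Ndufa5 of complex I were lower by small amounts, at -0.20, -0.19 and -0.20, as was Atp5b, the catalytic subunit of ATP synthase, at -0.13. Of 80 measured ribosomal protein genes 1 was called lower, Rpl36a at -0.27 ± 0.06 (adjusted p = 0.0268, limma), with a list median of -0.08 and 11 of 80 at an unadjusted p under 0.05.

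Several systems often examined after stress gave 0 calls by limma. Of 18 immediate early genes 0 had an unadjusted p under 0.05 (median 0.06), and of 16 circadian clock genes 4 did (median 0.14, and 0.01 with the prefix). The 15 MHC and 22 measured interferon-stimulated genes had 0 at an unadjusted p under 0.05. Among 32 measured neuropeptide genes and receptors 8 had an unadjusted p under 0.05 (median -0.06), among 22 measured monoamine receptors 7 (median -0.01), among 18 measured growth factors and receptors 6 (median 0.02) and among 20 cholesterol synthesis genes 6 (median -0.01). Predicted genes that match satellite repeats had the highest list median, 1.0 over 11 measured, with 0 called and 7 at an unadjusted p under 0.05, and their means overlapped between groups, from 0.64 to 1.72 log2 CPM in controls and from 1.01 to 2.56 in susceptible mice. In resilient C5 minus C1 or C2 mice their median was -0.90. Of 39 measured histone genes 2 were called lower, Hist1h4m and Hist1h2af, neither of them with values floored at log2 CPM 0 (limma), and of 12 perineuronal net and matrix genes 1, Hapln2, which belongs to the nodes of myelinated axons (-0.68). Lists for neuroblasts (10 genes), thalamic neurons (9 measured), blood (5 measured), choroid plexus (4 measured), long noncoding RNAs (9 measured) and small structured RNAs (5 measured) had 0 calls by limma, with 0, 3, 0, 1, 3 and 2 genes at an unadjusted p under 0.05. Of these, the medians of the choroid plexus (0.32), small structured RNA (0.16), blood (0.15) and thalamic (0.01) lists were positive.

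In D2 mice, compared in the same model, 0 genes were called between susceptible and control mice by limma, with 734 at an unadjusted p under 0.05. Mpeg1, Prmt1, Lman2l, Tceal9 and Cacna1g had D2 log2 fold changes of -0.03, 0.13, 0.04, -0.02 and -0.01. The difference between the strains was tested as an interaction, which called 0 genes, with 1766 at an unadjusted p under 0.05, so a difference between the strains was not shown for any gene after adjustment. Against the same B6 controls the resilient mice also had 0 calls, with 731 at an unadjusted p under 0.05.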

How the data were processed

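RNA from the mPFC of single mice was depleted of rRNA, made into ScriptSeq v2 libraries and sequenced. As the study's methods describe, the authors trimmed reads with the FastX toolkit, removed duplicates with PRINSEQ, aligned with STAR to GRCm38, counted exons with HTSeq, filtered out genes that did not reach 1 CPM in 6 samples, and normalized with voom and adjusted for library preparation set with ComBat. Whether the stress groups were given to ComBat, and whether counting used strand, is not given in the sources used here. The deposited values are log2 CPM after that adjustment, so read depth cannot be recovered, precision rests on the spread between mice, and p-values do not count the degrees of freedom that the adjustment used.

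Groups came from the labels. All 32 mPFC libraries entered one limma model (version 3.58.1 in R 4.3.3) with a mean for each of 5 strain and phenotype groups and robust empirical Bayes moderation, and susceptible minus control B6 was tested with Benjamini-Hochberg adjustment over 18946 genes at 0.05, two-sided. The fit was run on simulated data in which 200 genes were changed and mice did not differ by prefix. That run therefore does not bear on the confounding with prefix. The C5 or C7 prefix term was fitted in the same model. Gene names and coordinates came from GENCODE M21 (GRCm38), in which 18863 of 18946 IDs (99.6%) had a symbol. Where a symbol had several IDs, a list used the one with the highest mean. The genes named are the 12 highest and 12 lowest called genes ranked by -log10 of p times log2 fold change, up to 4 members of each list with the smallest p and every called member, all members of the lists on substrain genes, chromosome 17 copies, chromosome 19 neighbours and satellite repeats, the 12 smallest p among called genes without overlap and among those ordered by C7, and called neighbours within 500000 bases; others are members of the lists. Genes, lists and comparisons were chosen with earlier results of these data known. Alternatives were other covariates, sets of libraries, normalizations, moderation, low-value filters and leaving out each library. The other brain regions were not used here. Some items are not reported here.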

Additional observations from a re-analysis of the deposited data

Results flagged for a closer look

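In a group of 6 mice a value was singled out by its gap to the nearest other mouse, divided by the range of the group. This ratio had to exceed Dixon's 95% critical value for 6. Chance does so in about 1 in 20 groups, and 26 such values were found in the 300 groups examined.

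Control replicate 6, the only control with prefix C7, gave 10 of the 26. It was the highest control for Wdfy1 (5.98 log2 CPM), Gm28438 (4.93), Nnt (5.63), Gabra2 (7.12), Tmem181b-ps (6.11) and the mean of the GABA-A receptor subunits (6.96), and the lowest for Adss (6.81), an enzyme of AMP synthesis, Gm15446 (2.58), Ccl28 (1.65) and Bex2 (6.72). Susceptible replicate 4 gave 7. It was the lowest susceptible mouse for Tmem30c (0.38) and for the list means of upper cortical layers (6.04), calcium and sodium channels (7.02), synapse (7.56), axon and node of Ranvier (7.52) and monoamine receptors (2.68), and the highest for ribosomal proteins (3.82).

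Control replicate 5 was the lowest control for Syp (9.71), Rab11fip3 (6.604) and Fkbp5 (2.78). Susceptible replicate 5 was the highest for Gm28438 (6.36) and Tmem181b-ps (6.38), susceptible replicate 2 for Prmt1 (4.03) and the mean of chromatin regulators (6.59), and susceptible replicate 3 for Ctss (6.09). Control replicate 2 was the lowest control for Anln (4.61), a gene of mature OLGs.

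Spag16 lay on opposite sides of the control mean in B6 and D2 susceptible mice, with log2 fold changes of -1.13 in B6 and 0.54 in D2. The strain interaction over all genes called 0 genes by limma.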

How the results depend on the processing

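The main model called 420 genes, and each count below is likewise over all genes tested. A gene called in a setting need not be among the 420. With the C5 or C7 prefix as a covariate 0 genes were called, with all libraries or with only the 18 B6 libraries. At an unadjusted p under 0.05 there were 1247 and 1201 in limma. With C7 alone as the covariate 2 genes were called (1543 at an unadjusted p under 0.05). Outside C7 mice 0 were called (819), within C7 mice 9, and within C5 and C7 mice 10, where the lone control was assumed to vary like the other groups. With the library preparation set as a covariate 39 were called, with only the 18 B6 libraries 54 and with only the 12 control and susceptible libraries 4. Settings with C5 were added after the data were seen. Leaving out 1 library gave 33 to 802 calls: without control replicates 1, 3, 4, 5 and 6 there were 102, 33, 77, 106 and 802, and without susceptible replicates 2, 4, 5 and 6 there were 76, 713, 56 and 101. Without robust moderation, with a mean trend, quantile normalization, a filter at log2 CPM 1 or a floor at 0, the count was 430, 491, 500, 464 and 444.

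Directions turned for 5 named genes. Within C7 mice Tmem181b-ps had -0.10 and Gm12576 had 0.97. Within C5 and C7 mice Tmem181b-ps had -0.10, Bex2 0.017, Ncaph 0.0018, Ugt8a 0.0073 and Gm12576 1.09, and with the C5 or C7 covariate Gm12576 had 0.35 with either set of libraries. The cause was not tested. No paired analysis was possible because the labels carry no replicate numbers and a mouse belongs to 1 group only.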
